A study of Homo sapiens with 11 samples.

Results

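Cadherins and the factors of the epithelial-mesenchymal transition (EMT) were examined in RWPE1 cells, an immortalized, non-tumorigenic line of human prostate epithelium, as 10 genes chosen by name. These were the cadherins CDH1, CDH2 and CDH3, the epithelial adhesion gene EPCAM, the mesenchymal genes VIM and FN1, and the transcription factor genes SNAI1, SNAI2, ZEB1 and TWIST1. EPCAM, VIM and FN1 are therefore neither cadherins nor transcription factors. All 10 were found among the 60676 genes of the count table, and all 10 passed the filter on low counts that left 19981 genes to test. Cells kept in normoxia (called 0 h, 3 libraries) were compared with cells held at 1% O2 for 6 h (3 libraries), 12 h (3 libraries) and 24 h (2 libraries). All cells grew in keratinocyte serum-free medium with bovine pituitary extract and EGF. The medium of the hypoxic cells also held 10 mM HEPES, so low oxygen and the buffer cannot be told apart in any comparison with 0 h. The libraries came from 1 line, nothing in the labels says whether replicates were separate cultures, and p-values then measure only the spread between these libraries.

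EMT is the change in which epithelial cells loosen their junctions and take on the shape and motility of mesenchymal cells. The SNAI and ZEB proteins are zinc finger repressors that bind CACCTG or CAGGTG, a form of the E-box CANNTG, and are best known for repressing CDH1. TWIST1 is a basic helix-loop-helix factor that binds E-boxes as well. In prostate epithelium, CDH1 and EPCAM are general epithelial adhesion genes and CDH3 marks the basal layer.

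Between 27496009 and 49488345 reads were counted per library. Library sizes were scaled by TMM normalization factors, of which the lowest (0.539) belonged to 24 h replicate 2, a library that stood apart from the rest, and the highest was 1.32. The mitochondrially encoded genes took 10.2% to 10.3% of counts at 0 h, 4.30% to 6.78% at 6 and 12 h, and 1.74% and 0.369% in the pair at 24 h. Scaling by library size alone moved the median log2 fold change of all genes to -0.32, -0.50 and -0.97 at 6, 12 and 24 h against 0 h, so changes below are relative to the TMM scale. The basal keratin gene KRT5 stood at 6077 to 15881 counts per 1000000 (CPM), and the basal gene TP63 at 67.0 to 259 CPM (highest at 0 h). The 9 basal genes summed to 12632 to 16086 CPM at 0 h and 30684 to 57001 at 24 h. The luminal genes KRT8, KRT18 and KRT19 stood at 133 to 1138, 93.9 to 658 and 262 to 1002 CPM, while KLK3 had 0 counts. The 10 luminal genes summed to 657 to 769 CPM at 0 h and 1562 to 2801 at 24 h. The leukocyte marker CD14 had 19 to 116 counts per library. Stromal markers other than COL1A1 (27.7 to 60.5 CPM) had at most 8 counts in any library, and endothelial markers at most 10. Their summed levels at 0 h and 24 h were 47.2 to 60.7 and 28.2 to 30.7 CPM for the 10 stromal genes, and 0.0533 to 0.144 and 0.218 to 0.513 CPM for the 5 endothelial genes.

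The CPM plot of the 10 genes by library shows that the members moved in different ways. With edgeR's quasi-likelihood test and Benjamini-Hochberg adjustment over all tested genes, a gene is called at an adjusted p under 0.05. At 6 h, 6 of the 10 members were called, beside 52.8% of all genes tested, and CDH2, EPCAM, VIM, FN1 and SNAI2 were higher (25.1% of all genes were) while CDH3 was lower (27.7%). The same 6 genes were called in the same directions at 12 h, where 51.2% of all genes were called, 24.2% higher and 27.1% lower. At 24 h, 8 members were called beside 61.2% of all genes. CDH1 and CDH3 were lower (31.3% of all genes were), VIM, SNAI1 and SNAI2 and, on the TMM scale but not by library size alone, EPCAM, FN1 and TWIST1 were higher (29.9%), and CDH2 and ZEB1 did not pass. Read against those shares, the counts of members are no result about the group, and the results lie in the single genes. On the TMM scale the median log2 fold change of the members was 0.85, 0.69 and 0.83 at the 3 times. Over all genes tested it was -0.0021, -0.033 and -0.065. Nor are these medians a result about the group, as the 10 genes were chosen by name and the values depend on the scaling.

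**Figure D1:**
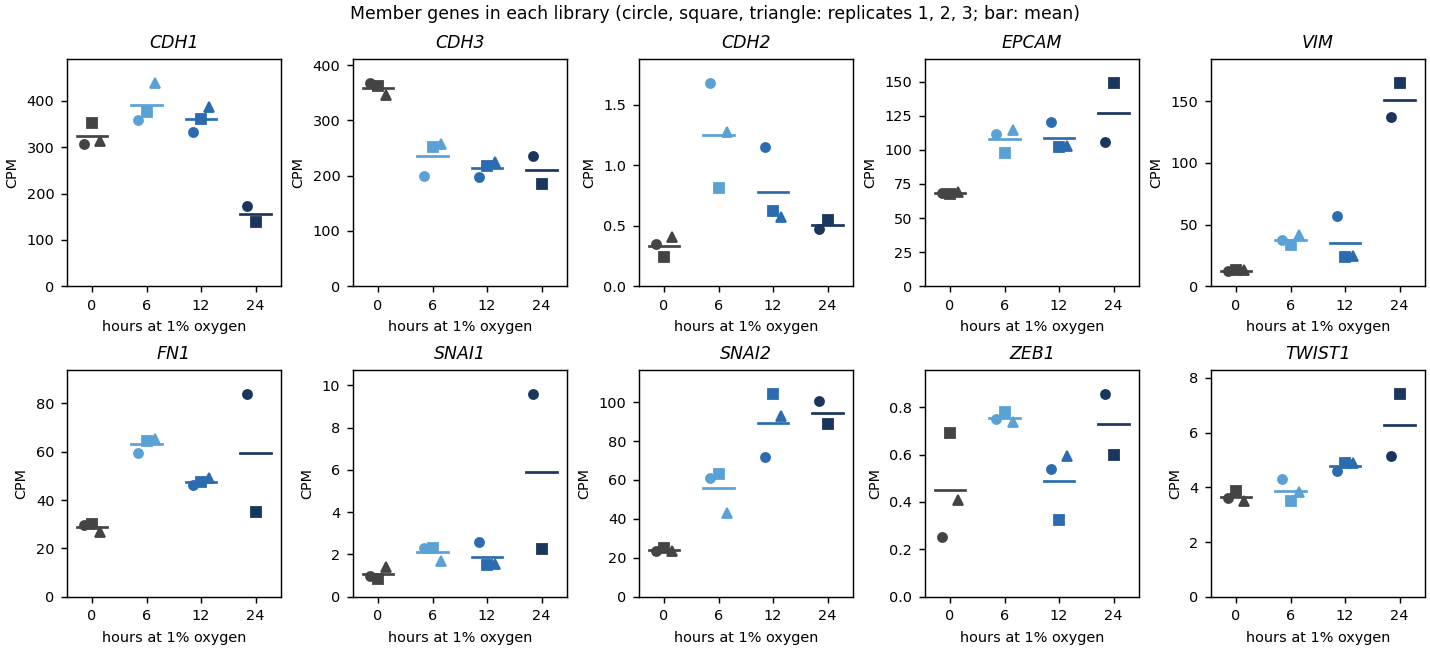
CPM on the TMM scale of each of the 10 genes against hours at 1% O2, with 1 point per library and a bar at the group mean. CDH1 drops at 24 h to 138 and 173 CPM, VIM reaches 137 and 165 CPM there, and the 2 libraries at 24 h lie far apart for FN1 and SNAI1.

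CDH1 encodes E-cadherin, the main calcium-dependent adhesion protein of epithelial junctions, and lies at chr16:68737292-68835537 on GRCh38 (GENCODE, plus strand). It gave 307, 353 and 312 CPM at 0 h, 358, 377 and 438 at 6 h, 333, 362 and 387 at 12 h, and 173 and 138 at 24 h. Both 24 h libraries lay below every other library. The 6 h libraries all lay above those at 0 h, while the 12 h libraries overlapped them. Its log2 fold change was 0.27 ± 0.15 (SE) at 6 h (edgeR quasi-likelihood, adjusted p = 0.140) and 0.15 ± 0.15 at 12 h (edgeR, adjusted p = 0.402). With limma-voom sample quality weights both were called higher, at 0.27 (adjusted p = 0.0284) and 0.24 (adjusted p = 0.00760). At 24 h CDH1 fell by 1.06 ± 0.17 on the log2 scale (edgeR, adjusted p = 0.000198), or, with TMM scaling, to 0.481 of its level in normoxia. The step from 12 h to 24 h was itself called, at -1.21 ± 0.17 (edgeR, adjusted p = 0.00134).

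CDH3, which encodes P-cadherin of basal epithelial cells, lies beside CDH1 on the same strand (chr16:68636189-68727468) and ends 9823 bases before CDH1 begins. Its libraries gave 367, 361 and 346 CPM at 0 h, 199, 252 and 257 at 6 h, 197, 218 and 224 at 12 h, and 235 and 185 at 24 h. Every hypoxic library was below every normoxic one, and the 3 hypoxic groups overlapped one another. The log2 fold changes were -0.60 ± 0.15, -0.75 ± 0.15 and -0.77 ± 0.17 (SE) at 6, 12 and 24 h, with adjusted p of 0.00459, 0.00131 and 0.00178 (edgeR). Neither later step was called, with -0.15 (95% interval -0.47 to 0.17) from 6 h to 12 h and -0.022 (-0.38 to 0.34) from 12 h to 24 h.

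CDH2 encodes N-cadherin, the cadherin of neural and mesenchymal cells, and lies at chr18:27932879-28177946 on the minus strand. It was rare, with 15, 9 and 17 counts at 0 h, 49, 25 and 67 at 6 h, 34, 21 and 25 at 12 h, and 11 and 10 at 24 h. On the CPM scale these were 0.332 ± 0.0854, 1.25 ± 0.432, 0.781 ± 0.321 (SD, n = 3 each) and 0.508 ± 0.0526 (SD, n = 2). The 6 h libraries were the highest group, and at every hypoxic time all libraries lay above those at 0 h. The log2 fold change was 1.90 ± 0.37 (SE) at 6 h (edgeR, adjusted p = 0.00101) and 1.19 ± 0.39 at 12 h (edgeR, adjusted p = 0.0206). The 12 h call was lost without 0 h replicate 1 (adjusted p = 0.0538), 0 h replicate 2 (adjusted p = 0.0807) or 12 h replicate 1 (adjusted p = 0.0990, edgeR), and on library size alone (0.73, adjusted p = 0.134). At 24 h the value was 0.59 (95% interval -0.47 to 1.65; edgeR, adjusted p = 0.308), and at these counts a change of that size was not detectable.

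Ratios of raw counts within a library do not depend on the scaling between libraries. CDH3 stood at 102% to 119% of CDH1 at 0 h, 55.5% to 66.9% at 6 h, 57.8% to 60.2% at 12 h, and 135% and 134% at 24 h. P-cadherin reads were thus fewer relative to E-cadherin reads at 6 and 12 h and more at 24 h than in any normoxic library. CDH2 was 0.0679% to 0.131% of CDH1 at 0 h, 0.215% to 0.467% at 6 h, 0.147% to 0.345% at 12 h, and 0.271% and 0.394% at 24 h. Every hypoxic library had a higher CDH2 share than every normoxic one, yet CDH2 stayed under 1% of CDH1 in each of the 11 libraries. At 24 h the higher share went with fewer CDH1 counts, 4054 and 2538 beside 12994 to 13284 at 0 h. The CDH2 counts themselves were 11 and 10 at 24 h, within the 9 to 17 at 0 h.

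**Figure D2:**
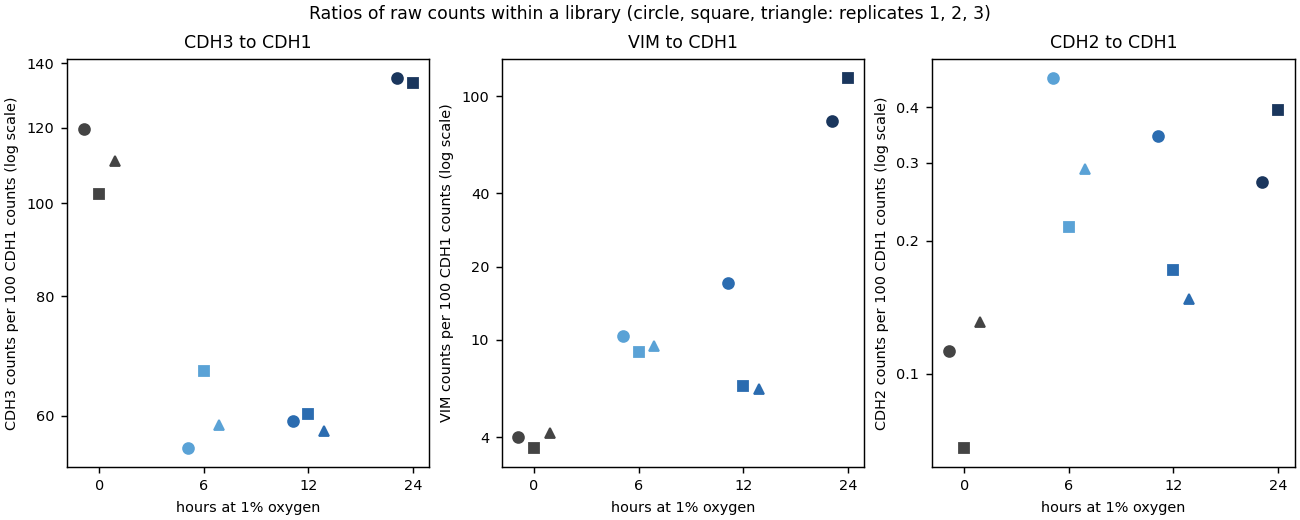
Raw counts of CDH3, VIM and CDH2 per 100 counts of CDH1 in the same library (log axis) against hours at 1% O2, 1 point per library. VIM rises from 3.60 to 4.16 at 0 h to 79.0 and 119 at 24 h, while CDH2 is at most 0.467.

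EPCAM, which encodes an epithelial cell adhesion protein that is not a cadherin (chr2:47345158-47387601, plus strand), was among the least variable members in normoxia. It gave 68.5, 67.9 and 69.2 CPM at 0 h, 112, 97.7 and 115 at 6 h, 120, 102 and 103 at 12 h, and 106 and 149 at 24 h. Each hypoxic library was above each normoxic one. The log2 fold changes were 0.66 ± 0.15, 0.66 ± 0.15 and 0.89 ± 0.16 (SE), with adjusted p of 0.00248, 0.00266 and 0.000462 (edgeR). On library size alone the calls were lost and the 24 h value turned to -0.077, so its direction at 24 h depended on the scaling.

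VIM encodes vimentin, the intermediate filament protein of mesenchymal cells and of many cultured epithelial lines, and lies at chr10:17228241-17237593 on the plus strand. It gave 12.3, 12.7 and 13.0 CPM at 0 h, 37.2, 33.8 and 41.3 at 6 h, 57.0, 23.4 and 24.4 at 12 h, and 137 and 165 at 24 h. All hypoxic libraries exceeded all normoxic ones, 12 h replicate 1 stood above the other two of its group, and both 24 h libraries were above all others. The log2 fold change was 1.56 ± 0.28 (SE) at 6 h, 1.46 ± 0.28 at 12 h and 3.57 ± 0.32 at 24 h, with adjusted p of 0.000573, 0.00107 and 2.98e-06 (edgeR). Without 12 h replicate 1 the 12 h value was 0.92, still called. On the TMM scale the 24 h value is 11.9 times the normoxic level and the largest change among the 10 members. The raw VIM counts were 477 to 540 at 0 h, in libraries of 28362918 to 32922049 reads. At 24 h they were 3202 and 3020, in libraries of 27496009 and 34067399 reads, so the size of the fold depends on the scaling. From 12 h to 24 h VIM rose by 2.11 ± 0.30 on the log2 scale (edgeR, adjusted p = 0.00136). From 6 h to 12 h the value was -0.10 ± 0.27 (edgeR, adjusted p = 0.871). Without 12 h replicate 1 it was -0.65 and called (edgeR, adjusted p = 0.0414).

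FN1 encodes fibronectin, a matrix glycoprotein that mesenchymal cells secrete (chr2:215360440-215436073, minus strand). It gave 29.6, 30.1 and 26.8 CPM at 0 h, 59.5, 64.4 and 65.3 at 6 h, 46.1, 47.4 and 49.2 at 12 h, and 83.9 and 35.1 at 24 h. The groups at 0, 6 and 12 h were tight and did not overlap, whereas the pair at 24 h spanned all of the 6 and 12 h values. The log2 fold change was 1.13 ± 0.23 (SE) at 6 h, 0.72 ± 0.23 at 12 h and 1.05 ± 0.26 at 24 h, with adjusted p of 0.00148, 0.0204 and 0.00349 (edgeR). On library size alone the 3 calls were lost (log2 fold changes 0.81, 0.25 and 0.26). The 24 h call rested on replicate 1, without which the value was 0.23 (edgeR, adjusted p = 0.146). The 12 h call was close to the threshold, and the adjusted p ran from 0.0506 to 0.0737 when 0 h replicate 1, 2 or 3 or 12 h replicate 2 or 3 was left out (edgeR).

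Upstream sequence was at hand in the RefSeq promoter table (GRCh38.p14) for 4 of the 10 members, namely CDH2, VIM, FN1 and ZEB1. The 250 bases before the start site are shown for VIM and FN1, the members with such an entry that were called at all 3 times. The VIM window is chr10:17227991-17228240 (plus strand) with a GC content of 46.0%, and the FN1 window is chr2:215436069-215436318 (minus strand) with 76.4%. Capitals mark the GC box GGGCGG or CCGCCC and the cyclic AMP response element TGACGTCA, which were searched after the windows had been seen.
VIM: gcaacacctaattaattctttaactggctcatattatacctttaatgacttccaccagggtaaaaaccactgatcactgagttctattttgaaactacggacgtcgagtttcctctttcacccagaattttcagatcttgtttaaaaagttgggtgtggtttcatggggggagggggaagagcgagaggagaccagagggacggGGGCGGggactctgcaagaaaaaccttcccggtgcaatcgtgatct
FN1: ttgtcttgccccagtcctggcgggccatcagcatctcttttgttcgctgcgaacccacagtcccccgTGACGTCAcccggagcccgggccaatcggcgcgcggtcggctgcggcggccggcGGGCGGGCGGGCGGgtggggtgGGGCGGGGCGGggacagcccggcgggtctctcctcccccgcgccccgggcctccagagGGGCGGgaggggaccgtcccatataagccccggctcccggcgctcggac
The VIM window holds 1 GC box, at 46 to 41 bases before the start site. The FN1 window holds 6 GC boxes, 3 of them overlapping in a row and a pair of others overlapping, and 1 TGACGTCA at 183 to 176 bases before the start. On either strand, 42.6% of the 35116 windows in the table hold a GC box and 1.65% hold TGACGTCA. Neither window holds the E-box CANNTG (in 61.8% of all windows), its form CACCTG or CAGGTG (17.5%), or the hypoxia response core ACGTG or CACGT (18.5%). Of the 7 ZEB1 windows, 2 hold CACCTG or CAGGTG and 1 holds the hypoxia response core. Of the 2 CDH2 windows, 1 holds a CANNTG and neither holds the hypoxia response core. These matches describe letters in the windows and nothing more.

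SNAI2, which encodes Slug, a repressor of the Snail family that basal epithelial cells express (chr8:48917598-48921740, minus strand), was the most abundant of the 4 transcription factor genes. It gave 23.5, 24.9 and 23.7 CPM at 0 h, 60.8, 63.3 and 43.1 at 6 h, 71.6, 104 and 92.7 at 12 h, and 100.5 and 88.7 at 24 h. The groups at 0, 6 and 12 h did not overlap, and the pair at 24 h lay within the range at 12 h. Its log2 fold change was 1.21 ± 0.18, 1.90 ± 0.18 and 1.98 ± 0.19 (SE), with adjusted p of 0.000115, 7.93e-06 and 5.15e-06 (edgeR). These 3 calls held under all 20 alternative settings. From 6 h to 12 h, where 4.95% of all genes were called (1.88% higher and 3.07% lower), SNAI2 was the only member called, at 0.68 ± 0.17 (edgeR, adjusted p = 0.0429). This call was lost in 10 of the 20 alternatives.

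SNAI1 encodes Snail, the founding member of the same family (chr20:49982980-49988886, plus strand). It gave 42, 31 and 59 counts at 0 h, 67, 71 and 90 at 6 h, 77, 50 and 67 at 12 h, and 224 and 41 at 24 h. On the CPM scale the pair at 24 h gave 9.58 and 2.23, against 0.826 to 1.42 at 0 h and 1.48 to 2.60 at 12 h. All hypoxic libraries were above all normoxic ones, but only 24 h replicate 1 was above 2.60 CPM. The log2 fold change was 0.96 ± 0.45 (SE) at 6 h (edgeR, adjusted p = 0.0895) and 0.79 ± 0.45 at 12 h (edgeR, adjusted p = 0.160). Both were called in some alternatives, with adjusted p between 0.00729 and 0.338 at 6 h and between 0.0251 and 0.639 at 12 h. At 24 h it was 2.47 ± 0.48 (edgeR, adjusted p = 0.000746), but 1.00 without 24 h replicate 1 (edgeR, adjusted p = 0.0470). From 12 h to 24 h, where 28.4% of all genes (15.1% higher, 13.3% lower) and 3 members (CDH1, VIM and SNAI1) were called, SNAI1 changed by 1.68 ± 0.47 (edgeR, adjusted p = 0.0193). The libraries of those groups overlapped, and without 24 h replicate 1 the value was 0.24 (edgeR, adjusted p = 0.652). Without 12 h replicate 2 or 3 the adjusted p was 0.0736 and 0.0710 (edgeR).

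TWIST1 (chr7:19020991-19117636, minus strand) gave 3.60, 3.86 and 3.49 CPM at 0 h, 4.31, 3.50 and 3.83 at 6 h, 4.60, 4.89 and 4.89 at 12 h, and 5.13 and 7.41 at 24 h. The 6 h libraries overlapped those at 0 h, and those at 12 and 24 h lay above them. The log2 fold change was 0.086 ± 0.18 (SE), 0.39 ± 0.18 and 0.78 ± 0.20, with adjusted p of 0.710, 0.0893 and 0.00555 (edgeR). The 12 h value was called with limma-voom sample quality weights (0.44, adjusted p = 0.000709). It was also called when only the 2 groups were compared (0.40; edgeR, adjusted p = 0.0117). The 24 h value was 0.47 without 24 h replicate 2 (edgeR, adjusted p = 0.0614) and turned to -0.19 on library size alone. With limma-voom sample quality weights it was 0.76 and not called (adjusted p = 0.110).

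ZEB1, which encodes the other class of zinc finger repressor (chr10:31318495-31529814, plus strand), had 11 to 26 counts at 0 h, 22 to 39 at 6 h, 11 to 26 at 12 h, and 20 and 11 at 24 h. On the CPM scale all 6 h libraries lay above those at 0 h, while those at 12 h and 24 h overlapped them. The log2 fold changes were 0.75 (95% interval -0.029 to 1.53), 0.13 (-0.68 to 0.95) and 0.71 (-0.22 to 1.65), with adjusted p of 0.0964, 0.789 and 0.168 (edgeR). No time passed the test, but the intervals at 6 h and 24 h reach beyond 1 log2 unit. The 6 h value was called with limma-voom sample quality weights (1.00, adjusted p = 0.0235) and without 0 h replicate 2 (1.18; edgeR, adjusted p = 0.0260). Without that library the 24 h value was called too (1.14; edgeR, adjusted p = 0.0422).

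**Figure D3:**
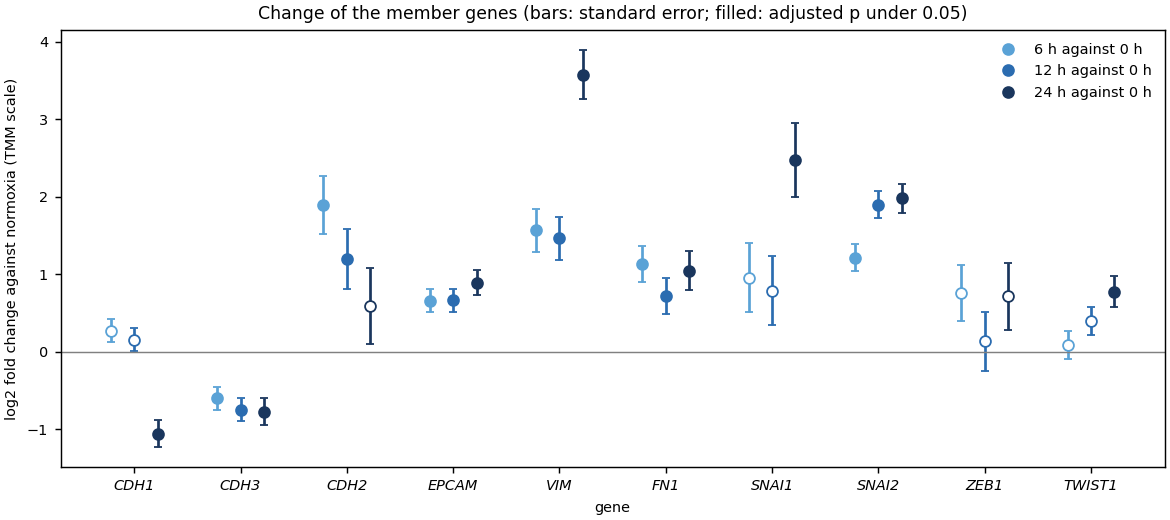
log2 fold change against 0 h on the TMM scale for the 10 genes, with bars for the standard error and filled points for an adjusted p under 0.05. VIM at 24 h is highest at 3.57, CDH3 is below 0 at all 3 times, and CDH1 is below 0 at 24 h only.

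The libraries of 9 of the 10 members did not overlap between 6 h and 0 h (all genes, 69.6%), against 8 of 10 at 12 h (72.3%) and 9 of 10 at 24 h (73%). Between 6 h and 12 h 4 of 10 did not overlap (31.6%), and between 12 h and 24 h 5 of 10 (49.2%). An exact permutation test of a single gene cannot go below p = 0.1 here, with 3 libraries against 3 or 2 against 3.

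Per kilobase of exon (RPKM on the TMM scale), the order of the members in normoxia was CDH3 (56.0 ± 1.67), CDH1 (53.3 ± 4.15), EPCAM (28.2 ± 0.260), SNAI2 (7.32 ± 0.226), VIM (2.45 ± 0.0673), TWIST1 (1.83 ± 0.0969), FN1 (1.68 ± 0.106), SNAI1 (0.629 ± 0.181), ZEB1 (0.0523 ± 0.0257) and CDH2 (0.0387 ± 0.00995; SD, n = 3). The neighbours CDH3 and CDH1, TWIST1 and FN1, and ZEB1 and CDH2 overlapped in their libraries, and other neighbours did not. At 6 h CDH1 led with 64.3, ahead of EPCAM with 44.5 and CDH3 with 36.9 RPKM. At 24 h EPCAM led with 52.4 RPKM, and CDH3 (32.8), VIM (29.1), SNAI2 (28.8) and CDH1 (25.7) followed, each overlapping the next. With the longest transcript in place of all exons, TWIST1 and FN1 exchanged places in normoxia, as did ZEB1 and CDH2 there and at 24 h. At 24 h VIM (56.6 RPKM by that length) then moved above CDH3 (47.1 RPKM), and SNAI1 moved from rank 6 to rank 8.

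Genes of the other strand overlap some members. They cover 24.6% of the exonic bases of VIM, 8.40% of CDH3, 7.06% of TWIST1, 5.71% of CDH1, 4.58% of ZEB1, 3.69% of SNAI2 and 3.58% of CDH2, and none of EPCAM, FN1 or SNAI1. The libraries were stranded, but the strand setting of the counting is not given in the sources used here. Of the 2 genes that overlap VIM on the other strand, ENSG00000234961 had 0 counts in each library. VIM-AS1, the other one, had 3 to 13 counts in any library beside 477 to 3202 for VIM, and was not called at 24 h (edgeR, adjusted p = 0.290). ZEB1-AS1, transcribed away from ZEB1, fell from 4.81 to 5.28 CPM at 0 h to 0.342 and 1.20 CPM at 24 h. Its log2 fold change was -2.73 ± 0.46 (SE) at 6 h, -1.80 ± 0.43 at 12 h and -2.76 ± 0.57 at 24 h, with adjusted p of 0.000353, 0.00414 and 0.00122 (edgeR). With limma-voom sample quality weights its 24 h call was lost (adjusted p = 0.0679).

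Further genes of the pathway were taken from 9 lists, and the genes with the highest and lowest fold changes at 24 h are named in each. Of all genes tested, 25.1% were higher and 27.7% lower at 6 h, 24.2% and 27.1% at 12 h, and 29.9% and 31.3% at 24 h. On library size alone, 13527 of the 19981 genes were called at 24 h, and only 2222 of these were higher. Nothing particular to a list is read from its counts on either scale beside those shares and counts. Of 12 other EMT transcription factor genes 9 were tested, of which 4 were higher and 3 lower at 24 h (median log2 fold change 0.44), or 1 higher and 4 lower on library size alone. TWIST2, the paralogue of TWIST1, gave 1.49 to 1.59 CPM at 0 h and 6.16 and 12.3 at 24 h (log2 fold change 2.58 ± 0.29). ZEB2, the paralogue of ZEB1, had 1 to 7 counts at 0 h, 24 to 29 at 12 h, and 26 and 3 at 24 h. Its value of 2.60 at 24 h was 0.54 without 24 h replicate 1 (edgeR, adjusted p = 0.683). KLF8 had 10 to 14 counts at 0 h and 1 and 0 at 24 h, a call that was lost without 24 h replicate 2 (edgeR, adjusted p = 0.0630). TCF4 fell by 0.86 ± 0.21 on the log2 scale (edgeR, adjusted p = 0.00331), a call lost with limma-voom sample quality weights (adjusted p = 0.214), as were those of ZEB2 (adjusted p = 0.171) and KLF8 (adjusted p = 0.235).

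The regulators of the SNAI1 and SNAI2 proteins, such as ubiquitin ligases, kinases and cofactors, had 17 of 18 genes tested. At 24 h, 6 were higher and 3 lower (median -0.044), or 2 higher and 10 lower on library size alone. LOXL2, a lysyl oxidase that is known to bind and stabilise Snail, gave 2.06 to 2.99 CPM at 0 h and 57.3 and 40.9 at 24 h (log2 fold change 4.30 ± 0.43; edgeR, adjusted p = 5.93e-06). KDM1A, the histone demethylase LSD1 that Snail recruits, rose by 1.54 ± 0.17 at 24 h. FBXL14, a ubiquitin ligase subunit that targets Snail, gave 7.70 to 8.94 CPM at 0 h, 11.4 to 16.4 at 6 h, and 3.21 and 2.72 at 24 h. It was higher at 6 h (0.66 ± 0.19; edgeR, adjusted p = 0.0125) and lower at 24 h (-1.48 ± 0.24; edgeR, adjusted p = 0.000226). USP27X, a deubiquitinase, changed by -1.33 ± 0.36 at 24 h. With limma-voom sample quality weights the 24 h calls of FBXL14 (adjusted p = 0.0640) and USP27X (adjusted p = 0.250) were lost.

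The partners of cadherins in adherens junctions were tested in full. Of the 10 genes, 3 were higher and 2 lower at 6 h, 3 and 4 at 12 h, and 3 and 5 at 24 h (median -0.52), or 0 and 8 at 24 h on library size alone. CTNNA1, which encodes alpha-catenin, gave 426 to 439 CPM at 0 h and 960 and 569 at 24 h (log2 fold change 0.82 ± 0.20, which was 0.34 without 24 h replicate 1 and -0.015 on library size alone). NECTIN2 had a change of 0.59 ± 0.18, which was 0.30 without 24 h replicate 2 (edgeR, adjusted p = 0.172) and -0.38 on library size alone, and its call was lost with limma-voom sample quality weights (adjusted p = 0.159). PTPRF, a receptor phosphatase of cell contacts, fell from 791 to 889 CPM at 0 h to 212 and 206 at 24 h (log2 fold change -2.02 ± 0.19). NECTIN1 fell from 563 to 726 CPM to 199 in each 24 h library (-1.70 ± 0.18).

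Tight junction genes had 13 of 14 tested, with 4 higher and 7 lower at 24 h (median -0.57), or 0 and 9 on library size alone. CGN, which encodes the cytoplasmic linker cingulin, was lowest at -2.24 ± 0.23. CLDN7, a claudin, stood at 1.11 ± 0.23, but at 0.55 without 24 h replicate 2 and at 0.091 on library size alone, where it was not called (edgeR, adjusted p = 0.674). CRB3, a polarity gene, stood at 1.27 ± 0.29, with 11.9 to 13.2 CPM at 0 h and 17.4 and 43.6 at 24 h, and without 24 h replicate 2 it was 0.44 (edgeR, adjusted p = 0.0912). Desmosome genes were all tested, and 1 was higher and 5 lower of 10 at 6 h, 2 and 5 at 12 h, and 1 and 7 at 24 h (median -0.67), or 0 and 8 at 24 h on library size alone. PKP2 rose from 30.9 to 32.7 CPM at 0 h to 144 to 156 at 6 h and stood at 122 and 52.8 at 24 h (log2 fold change 1.47 ± 0.25 at 24 h). The 24 h value was 0.68 without 24 h replicate 1, and on library size alone it was 0.68 and not called (edgeR, adjusted p = 0.113). DSG3 and PKP1, a desmosomal cadherin and a plakophilin of stratified epithelium, changed by -1.63 ± 0.32 and -1.56 ± 0.23. The DSG3 value was -2.59 without 24 h replicate 1 and -1.09 without 24 h replicate 2.

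Epithelial state factors, the genes that keep or define epithelial identity, had 14 of 15 tested. At 24 h, 4 were higher and 7 lower (median -0.18), or 1 and 8 on library size alone. ELF3 rose from 71.9 to 78.6 CPM to 327 and 392 (log2 fold change 2.26 ± 0.31), and OVOL1, a repressor of ZEB1 in other epithelia, changed by 1.24 ± 0.20. The OVOL1 value was 0.73 without 24 h replicate 1 and 0.41 on library size alone, where the call was lost (edgeR, adjusted p = 0.253). TP63, the basal lineage factor, fell from 218 to 259 CPM to 95.2 and 76.1 (-1.50 ± 0.19), and GRHL1 fell by 1.69 ± 0.17.

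Of 21 mesenchymal and invasion genes 16 were tested, and 10 were higher and 2 lower at 6 h, 9 and 2 at 12 h, and 9 and 2 at 24 h (median 1.02), or 5 and 5 at 24 h on library size alone. S100A4, a calcium-binding protein of motile cells, gave 3.09 to 4.57 CPM at 0 h and 27.1 and 45.7 at 24 h (3.25 ± 0.31). NT5E, the ectonucleotidase CD73, was already 23.4 to 29.0 CPM at 6 h, from 2.63 to 3.81 at 0 h, and changed by 2.93 ± 0.22 at 24 h. WNT5A (-1.80 ± 0.41, from 27 to 29 counts at 0 h to 4 in each 24 h library) and AXL (-0.70 ± 0.16) were lower, though neither was called with limma-voom sample quality weights (adjusted p = 0.253 and 0.0784). Of 15 other cadherins 7 were tested, and 2 were higher and 1 lower at 24 h (median 0.82), or 1 and 2 on library size alone. CDH16, the cadherin of kidney tubules, had 4 to 8 counts at 0 h and 87 and 62 at 24 h (4.49 ± 0.49), CDH24 changed by 0.98 ± 0.16, and CDH26 by -1.92 ± 0.39. On library size alone CDH24 was at 0.053 (edgeR, adjusted p = 0.827), and with limma-voom sample quality weights the CDH26 call was lost (adjusted p = 0.194). In the list of 4 antisense partners 3 were tested, and ZEB1-AS1 was the one called, while 2 were called without either 24 h library.

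**Figure D4:**
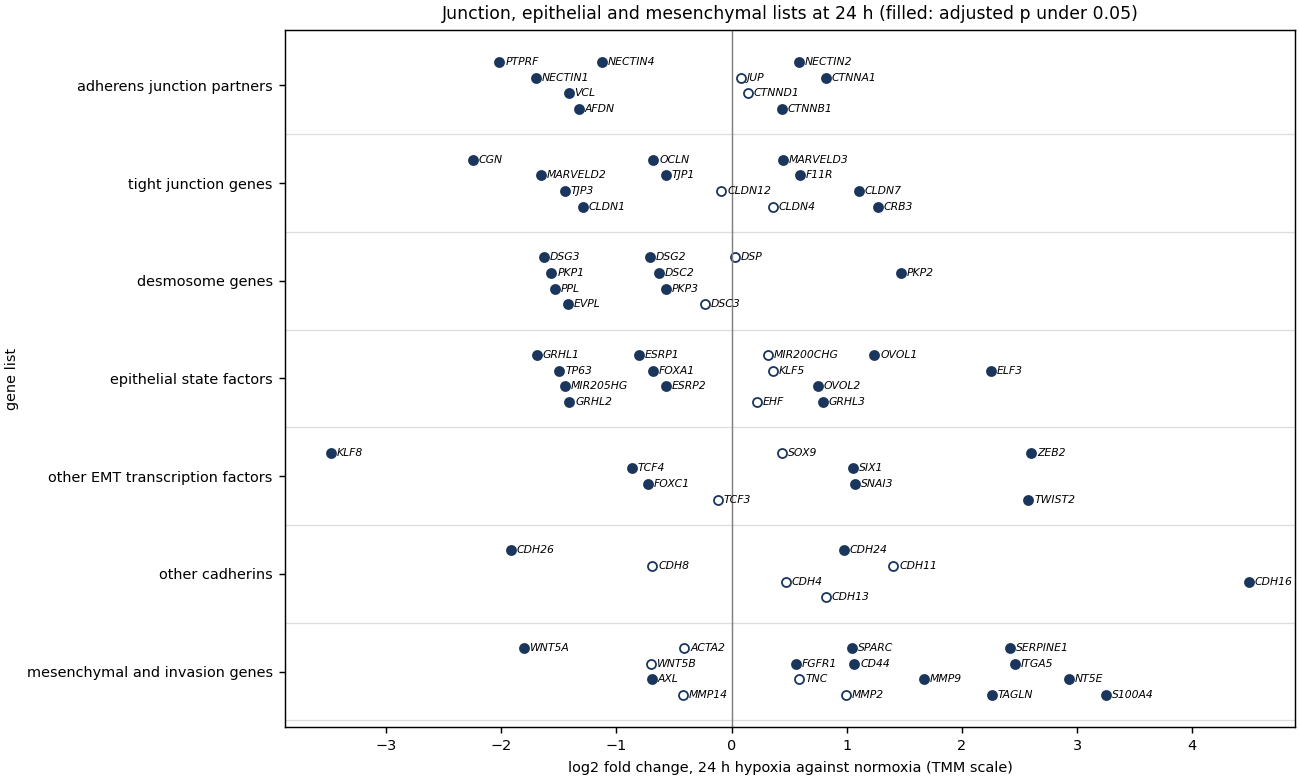
log2 fold change at 24 h against 0 h on the TMM scale for tested genes of 7 lists, with filled points for an adjusted p under 0.05. Each list holds genes on both sides of 0. KLF8 had 1 and 0 counts at 24 h, so its plotted value depends on the prior count.

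As a description, the genes whose log2 CPM ran most like each member over the 11 libraries (Pearson r, out of 13931 genes) were listed. They were TTPAL (0.973) and DENND1C (0.970) for CDH1, ADAMTS7 (0.983) and ARPIN (0.983) for CDH3, and GPBP1 (0.947) and FOXN2 (0.944) for CDH2. For EPCAM they were HSPE1 (0.990) and its pseudogene HSPE1P3 (0.990), which may share reads with it. RPS4Y1 (0.987) and UBE2E1 (0.985) were closest for VIM, and CEP76 (0.973) and LMAN1 (0.961) were closest for FN1. LOXL2 (0.993) and UCA1 (0.990) were closest for SNAI2, ARC (0.970) and HSF2 (0.953) for SNAI1, PPIL1 (0.977) and TDP2 (0.976) for TWIST1, and C4orf47 (0.882) and PDIA5 (0.841) for ZEB1. The libraries share their time points and scaling factors, so high values are common in such a series.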

How the data were processed

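RNA longer than 200 nucleotides from RWPE1 cells was sequenced as stranded, single-end libraries. The authors trimmed the reads, aligned them with STAR to GRCh38 and assigned them to Ensembl genes with featureCounts. The deposited values are raw counts. Strand setting and treatment of reads with several matches are not given in the sources used here. Of the triplicates planned, the 24 h library left over was not analysed here.

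Symbols, positions and exonic lengths came from GENCODE release 44 (60357 genes found, 42009 with a symbol). filterByExpr (minimum count 10, minimum total 15) kept 19981 of 60676 genes. TMM-scaled counts of all 11 libraries were fitted with edgeR's quasi-likelihood test, with time point as the only factor. The study used limma-voom, which is an alternative here. Benjamini-Hochberg adjustment ran over all tested genes in each of 5 comparisons, and 95% intervals are from the same fit. log2 CPM used a prior count of 2. The script was tested on simulated counts. Alternatives exchanged the test, scaling, filter and libraries. Members, lists and tests were chosen with earlier results of these data known. Named in each list are the called genes with the 2 largest rises and falls at 24 h, except 1 gene that is not reported here or drawn, and for likeness the 2 genes with the highest r and a mean of at least 1 CPM. Fits used edgeR 4.0.16 and, as alternatives, DESeq2 1.42.0 and limma 3.58.1 under R 4.3.3. Figures used matplotlib 3.10.9.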

Additional observations from a re-analysis of the deposited data

Results flagged for a closer look

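In 4 cases the change against 0 h differed between successive times of hypoxia by the edgeR test of the later against the earlier time. SNAI2 was higher at 12 h than at 6 h by 0.68 on the log2 scale (adjusted p = 0.0429). CDH1 was lower at 24 h than at 12 h, at -1.21 (adjusted p = 0.00134), with both 24 h libraries below all 12 h libraries. VIM was higher at 24 h than at 12 h by 2.11 (adjusted p = 0.00136), again without overlap. SNAI1 differed by 1.68 (adjusted p = 0.0193) through 24 h replicate 1, at 9.58 CPM, while replicate 2 at 2.23 CPM lay among the 12 h libraries. Mitochondrially encoded genes took 1.74% and 0.369% of counts in these 24 h libraries and 4.78% to 6.78% at 12 h, and their part in the differences was not tested.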

How the results depend on the processing

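Of 995 alternative values of the members over 20 settings and 5 comparisons, 36 lost and 26 gained a call in the same direction. Another 3 reversed with a call in the main fit or the alternative. The other 930 kept their side of the threshold, and a change of direction among them was counted as kept where neither fit was called. For example, ZEB1 at 12 h against 0 h was 0.13 and reached -0.17 when 1 library was left out. On library size alone the 24 h against 0 h values reversed for EPCAM (-0.077), TWIST1 (-0.19), CTNNA1 (-0.015) and NECTIN2 (-0.38), and 3 members were called at 12 h (6 with TMM) and 5 at 24 h (8 with TMM), beside 10560 and 13527 of all genes (10236 and 12235 with TMM). Without 24 h replicate 1, FN1 from 12 h to 24 h reversed to -0.47 (edgeR, adjusted p = 0.0132), and over all libraries left out in turn it ran from -0.47 to 0.80. From 6 h to 12 h, 1 member was called, against 2 with limma-voom quality weights or only those groups. On library size alone 0 were called (2 at an unadjusted p under 0.05), and with the replicate block 0 (1 at an unadjusted p under 0.05). With 1 library at 0, 6 or 12 h left out, 0 to 2 were called. Over all genes, 989 were called in the main fit, 4489 with quality weights and 1876 with only those groups. It was 690 on library size alone, 510 with the block, and 61 to 1003 with 1 such library left out. From 12 h to 24 h, 3 members were called beside 5668 of all genes. With only those groups edgeR called 0 members and 0 of all genes (3 members and 5671 genes at an unadjusted p under 0.05). With 1 library at 0, 6 or 12 h left out, 2 to 3 members were called beside 3068 to 5772 of all genes. The cause of these differences was not tested. With quality weights the calls at 24 h fell from 7 to 2 for other EMT factors, 11 to 7 for epithelial state factors and for tight junction genes, 11 to 6 for mesenchymal genes and 9 to 5 for SNAI regulators, and over all genes from 12235 to 6169.

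No pairing of the libraries by replicate number was seen, but this check cannot exclude one. It uses deviations from group means, which cancel out within a time, so the 2 libraries at 24 h mirror each other. The deviations of 15 same-numbered pairs correlated from -0.16 to 0.21, with 2 over 0.1, and 4 of 11 libraries correlated best with their own number. The block left 8 members called at 24 h, beside 11534 of all genes (12235 in the main fit). Low counts limit CDH2, ZEB1, ZEB2 and KLF8, and the spread of the 2 libraries at 24 h limits FN1, SNAI1 and TWIST1. With only the 12 h and 24 h groups, the calls of CDH1 and VIM between them were lost too (edgeR, adjusted p = 0.0658 each). All results at 24 h rest on those 2 libraries.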
